A study of Mus musculus with 8 samples.

Results

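The 8 genes described here form the core of the LIF and STAT3 pathway in mouse embryonic stem cells (ESCs): Lif, Lifr, Il6st, Jak1, Stat3, Socs3, Pim1 and Pim3. They were chosen by name, as the genes whose Ensembl identifiers carry these symbols, and are 8 of the 55335 genes in the count table. All 8 passed the filter on low counts, which kept 16504 genes for testing. RNA-seq was done on polyA RNA of E14 ESCs, a mouse line, in 4 groups of 2 libraries: cells infected with a control shRNA (negative control), and knockdown (KD) cells with shRNA against Sox2 (Sox2-KD), Hnrnpk (hnRNPK-KD) or Cdk9 (Cdk9-KD). Sox2 encodes a pluripotency transcription factor, Hnrnpk an RNA-binding protein and Cdk9 the kinase that releases paused RNA polymerase II. According to the methods of the study, all groups received lentivirus and puromycin selection, and all were grown with LIF, the GSK3 inhibitor CHIR99021 and the MEK inhibitor PD0325901. Every group, control included, was therefore exposed to LIF from the medium, and the Lif mRNA measured here is that made by the cells. The methods call the replicates biological duplicates. Which shRNA each library received is not given in the sources used here.

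LIF is a secreted cytokine that binds the LIF receptor, a heterodimer of LIFR and gp130, the product of Il6st. The receptor-bound kinase JAK1 phosphorylates STAT3, which enters the nucleus and activates genes that keep mouse ESCs self-renewing. Socs3 and the Pim kinase genes are known targets of STAT3. SOCS3 binds gp130 and JAK and shuts the signal down, while PIM1 and PIM3 are serine/threonine kinases that promote survival and self-renewal.

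The promoters of 3 members are printed here, since Socs3 is the feedback inhibitor and since Pim1 and Pim3 were the members with the largest lower values in Sox2-KD. Each window runs from 250 bases before to 50 bases after the RefSeq start, 5′ to 3′ on the strand of the gene, in RefSeq's GRCm38.p6 assembly. Capitals mark TTCNNNGAA, the STAT-type motif, and ACAAAG, a SOX-type motif, each searched on both strands, with ACAAAG read as CTTTGT on the other strand. Socs3 lies at chr11:117969317-117969616 on the − strand, Pim1 at chr17:29490535-29490834 on the + strand and Pim3 at chr15:88861944-88862243 on the + strand.
Socs3: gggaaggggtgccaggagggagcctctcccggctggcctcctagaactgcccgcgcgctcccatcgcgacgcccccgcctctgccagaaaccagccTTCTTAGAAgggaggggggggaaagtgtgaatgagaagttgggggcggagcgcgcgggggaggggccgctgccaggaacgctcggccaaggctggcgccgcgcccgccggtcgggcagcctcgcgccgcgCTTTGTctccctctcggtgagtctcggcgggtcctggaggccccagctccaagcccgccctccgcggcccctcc
Pim1: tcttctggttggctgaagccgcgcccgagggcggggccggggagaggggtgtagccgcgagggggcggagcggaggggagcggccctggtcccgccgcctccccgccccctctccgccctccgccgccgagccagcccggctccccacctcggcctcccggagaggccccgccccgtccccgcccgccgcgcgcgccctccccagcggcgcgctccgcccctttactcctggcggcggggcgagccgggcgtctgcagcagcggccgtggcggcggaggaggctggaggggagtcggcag
Pim3: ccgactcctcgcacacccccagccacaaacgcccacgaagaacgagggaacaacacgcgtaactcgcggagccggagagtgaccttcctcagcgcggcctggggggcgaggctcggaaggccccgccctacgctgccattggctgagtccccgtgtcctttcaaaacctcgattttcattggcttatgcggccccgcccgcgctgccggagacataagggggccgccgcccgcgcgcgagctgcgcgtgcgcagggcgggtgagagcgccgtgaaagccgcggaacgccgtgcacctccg
RefSeq gave 10 such windows for the 8 members, with 2 starts each for Lifr and Pim1. TTCNNNGAA was found in 1 of the 10, that of Socs3, where its first base lies at position -154 from the start, and in 8.3% of all 32851 windows of this length. The narrower TTCCNGGAA, every match of which is also a match of TTCNNNGAA, was in 0 of the 10 and in 1.15% of all windows. ACAAAG was in 2 of the 10 (Stat3 and Socs3) and in 18.7% of all windows, and ACAATG, another SOX-type motif, was in 1 (Lifr, second start) and in 12.6%. The windows of Pim1, Pim3 and Lif held none of the 4 motifs.

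The libraries held 16709201 to 17719366 counts. The targeted mRNA was lower in both Sox2-KD libraries (320 and 284 CPM against 412 and 530 in control, in TMM-normalized CPM, counts scaled to a common library size) and in both Cdk9-KD libraries (73.1 and 53.2 against 109 and 129). Sox2 was called lower in Sox2-KD (log2FC -0.64, adjusted p = 0.0479, edgeR), while Cdk9 was not called in Cdk9-KD (-0.91, adjusted p = 0.0985, edgeR). Hnrnpk was at 697 CPM in replicate 1 of the hnRNPK-KD group but at 1144 in replicate 2, above the control values of 1094 and 1131. The group is therefore called the hnRNPK-labelled libraries. Some of its results are also given without replicate 2. The others, among them the counts of members that did not overlap, rest on both libraries. The 6 pluripotency markers were detected in every library (Pou5f1 at 584 to 923 CPM), while the fibroblast markers summed to between 2.19 and 6.19 CPM. The pluripotency markers summed to 4056 to 4251 CPM in Sox2-KD against 4540 to 5205 in control. Of the 6, 5 had a log2FC below 0 there (Nanog -0.43, adjusted p = 0.161, edgeR) and 1, Utf1, was called higher (0.80, adjusted p = 0.0328, edgeR). Utf1 had 25.8 and 30.9 CPM in control and 50.5 and 48.1 in Sox2-KD. It was also above control, but not called, in the hnRNPK-labelled libraries (41.4 and 44.8) and in Cdk9-KD (57.4 and 44.4). In Sox2-KD, the summed level of 7 trophectoderm markers was 176 to 308 CPM against 85.2 to 98.8 in control, and that of 6 primitive endoderm markers was 42.9 to 62.2 against 3.83 to 5.10. In Sox2-KD, 3 of the 5 tested trophectoderm markers were called higher, namely Krt8, Krt18 and Gata3. Of the 5 tested primitive endoderm markers, 2 were called higher, namely Gata6 and Dab2. Most of the primitive endoderm sums in Sox2-KD came from Dab2, which averaged 44.6 CPM there and 0.77 in control. Of these 5 markers, 4 had a log2FC above 0 and 1 below. Gata4 averaged 0.81 CPM in Sox2-KD and 0.97 in control, with overlapping libraries. The keratins Krt8 and Krt18 made up 139 and 265 CPM of the trophectoderm sums in Sox2-KD and 21.6 and 20.2 in control, while the other 5 markers summed to 37.5 and 43.0 in Sox2-KD and 63.6 and 78.5 in control. The defining trophectoderm gene Elf5 had at most 2 counts in any library. Cdx2 had 6.10 and 6.22 CPM in Sox2-KD against 19.8 and 35.1 in control, and Tfap2c 28.7 and 32.5 against 43.4 and 43.0, neither of which was called. The part of these marker differences in the results for Sox2-KD was not tested. In bulk RNA, fewer cells of a type and less RNA per cell cannot be told apart.

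A gene was called at an edgeR quasi-likelihood adjusted p under 0.05 with an absolute log2 fold change (log2FC) over 0.6. Against control, 1 member was called in Sox2-KD (Pim1, lower), 0 in the hnRNPK-labelled libraries and 0 in Cdk9-KD. Over all tested genes, 4.32% were called in Sox2-KD and 1.69% were called lower. In the hnRNPK-labelled libraries 0% were called, and in Cdk9-KD 0.139% were called. At an unadjusted p under 0.05 there were 2 members in Sox2-KD (Pim1 and Pim3), 1 in the hnRNPK-labelled libraries (Jak1) and 2 in Cdk9-KD (Lif and Jak1), against 19.3%, 8.03% and 10.4% of all tested genes. DESeq2 and edgeR's likelihood ratio test each called 1 member in Sox2-KD and 0 in the hnRNPK-labelled libraries and in Cdk9-KD. Over all tested genes they called 1029 and 1350 in Sox2-KD. In the hnRNPK-labelled libraries these totals were 83 and 87, and in Cdk9-KD 222 and 279. Without replicate 2 of the hnRNPK-labelled libraries, the log2FC against control was -0.75 for Pim1 and -0.63 for Pim3, against -0.51 and -0.39 with both. That of Jak1 was then -0.37, against -0.46 with both. Lif changed sign, from -0.33 to 0.18, and so did Lifr (to -0.08) and Il6st (to -0.02).

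In Sox2-KD, the libraries of 6 of the 8 members did not overlap with control, against 53.3% of all genes. Of these, 4 (Lif, Jak1, Stat3 and Socs3) were higher, against 28.2% of all genes, and 2 (Pim1 and Pim3) were lower, against 25.2%. In the hnRNPK-labelled libraries 2 of 8 did not overlap (39.1% of all genes), 0 of them higher (20.4%) and 2 lower (Jak1 and Pim3, 18.7%). In Cdk9-KD 4 of 8 did not overlap (39.2%), with Socs3 higher (21.2%) and Lif, Jak1 and Stat3 lower (18%). Of all tested genes, 0.0545% were called higher and 0.0848% called lower in Cdk9-KD. These 3 comparisons share the same control libraries.

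**Figure D1:**
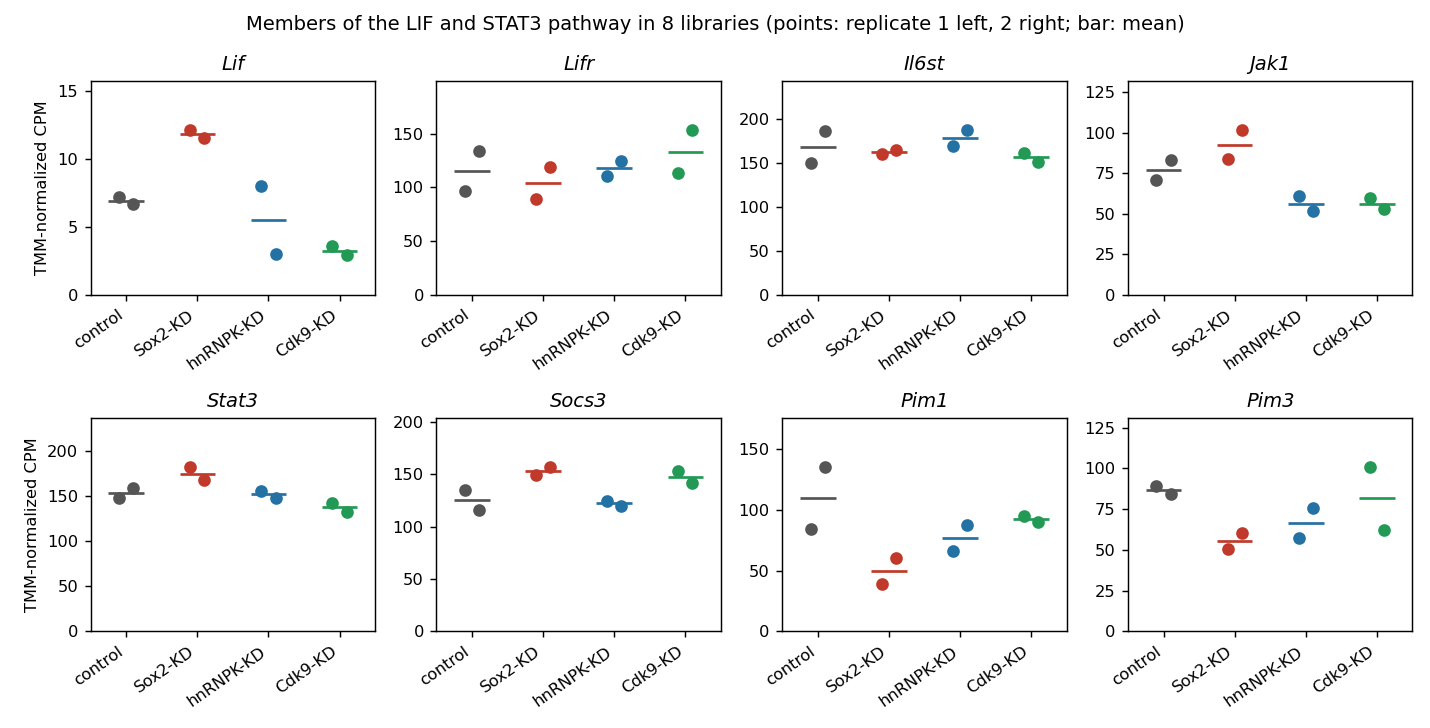
TMM-normalized CPM of each member in each library, with a separate linear axis from 0 for each gene. Points are libraries and bars are group means of 2 libraries. Pim1 sits lowest in Sox2-KD (39.3 and 60.8 CPM), Lif highest there (12.1 and 11.5), and Lifr and Il6st overlap between Sox2-KD and control.

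Per length of annotated exons, the members differed in level in control cells. Socs3 (43.4 ± 4.63 CPM per kb, SD, n = 2), Pim3 (35.8 ± 1.43) and Pim1 (32.6 ± 10.8) stood highest. Stat3 (16.1 ± 0.82), Il6st (15.2 ± 2.36), Lifr (10.7 ± 2.43) and Jak1 (10.7 ± 1.20) followed, and Lif (1.59 ± 0.09) was lowest. In Sox2-KD, Pim1 stood at 14.9 ± 4.52 CPM per kb, in the range of the receptors and Stat3, while Socs3 stood at 53.0 ± 1.91.

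The order of the group means differed between members. Sox2-KD was highest for Lif, Jak1, Stat3 and Socs3 and lowest for Lifr, Pim1 and Pim3, and the highest mean was 3.66 times the lowest for Lif, 2.19 times for Pim1, 1.65 times for Jak1, 1.57 times for Pim3 and 1.14 to 1.28 times for the other members. For none of the 8 members were groups that stood next to each other in this order called different. The calls described for Lif, Jak1 and Pim1 are between groups further apart.

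The ligand gene Lif (ENSMUSG00000034394.14, chromosome 11, 4257557 to 4272514, + strand) had 7.21 and 6.65 CPM in control, 12.1 and 11.5 in Sox2-KD, 7.97 and 3.03 in the hnRNPK-labelled libraries, and 3.56 and 2.90 in Cdk9-KD, from 49 to 220 counts. Both Sox2-KD libraries were above all others and both Cdk9-KD libraries were below control. Replicate 2 of the hnRNPK-labelled libraries lay between the Cdk9-KD values, whereas replicate 1 was above control. Against control, the log2FC of Lif was 0.77 ± 0.38 (SE) in Sox2-KD (adjusted p = 0.303, edgeR) and -1.10 ± 0.40 in Cdk9-KD (adjusted p = 0.373), neither of which was called. Between Sox2-KD and Cdk9-KD, the ends of the order of its levels, Lif was called higher in Sox2-KD, with a log2FC of 1.87 ± 0.40 (95% interval 0.99 to 2.75, adjusted p = 0.0185, edgeR). This call was lost when any of the 4 libraries compared was left out (log2FC 1.72 to 2.04, adjusted p 0.0579 to 0.113, edgeR). Against the hnRNPK-labelled libraries, the log2FC of Lif was 1.10 (adjusted p = 0.124, edgeR), 0.58 without replicate 2 and 1.96 without replicate 1. In the last case it was called (adjusted p = 0.0197, edgeR), in a comparison that rests on the library in which Hnrnpk was not lower.

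The receptor genes showed no called difference in any of the 6 comparisons between groups. Lifr (ENSMUSG00000054263.12, chromosome 15, 7090614 to 7197489, + strand), which encodes the LIF-binding chain, had 96.9 and 134 CPM in control, 88.8 and 119 in Sox2-KD, 111 and 125 in the hnRNPK-labelled libraries, and 113 and 153 in Cdk9-KD. The replicates of control, of Sox2-KD and of Cdk9-KD each lay further apart than the highest and lowest group means, replicate 1 was below replicate 2 in 4 of 4 groups, and all groups overlapped with control. In Sox2-KD the log2FC was -0.15, with a 95% interval from -0.62 to 0.32. Its sign turned without control replicate 2 (0.10) and without Sox2-KD replicate 1 (0.04).
Il6st (ENSMUSG00000021756.12, chromosome 13, 112464070 to 112510086, + strand), which encodes the signal-transducing chain gp130, had 150 and 187 CPM in control, 161 and 165 in Sox2-KD, 169 and 187 in the hnRNPK-labelled libraries, and 161 and 152 in Cdk9-KD. Both Sox2-KD values lay between the control values. Its log2FC in Sox2-KD was -0.05 (95% interval -0.38 to 0.28) and became 0.02 with library totals in place of TMM, so that no direction can be given.

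The kinase gene Jak1 (ENSMUSG00000028530.14, chromosome 4, 101152367 to 101265282, − strand) had higher levels in both Sox2-KD libraries than in the hnRNPK-labelled and Cdk9-KD libraries. It had 71.0 and 83.3 CPM in control, 83.5 and 101 in Sox2-KD, 60.7 and 51.5 in the hnRNPK-labelled libraries, and 59.5 and 53.0 in Cdk9-KD. The lower Sox2-KD library was level with the higher control library, and the 4 hnRNPK-labelled and Cdk9-KD libraries were all below control. Jak1 was called higher in Sox2-KD than in the hnRNPK-labelled libraries, with a log2FC of 0.72 ± 0.17 (95% interval 0.35 to 1.09, adjusted p = 0.0327, edgeR). It was called higher in Sox2-KD than in Cdk9-KD by the same log2FC of 0.72 ± 0.17 (95% interval 0.35 to 1.09, adjusted p = 0.0281, edgeR). Of all tested genes, 5.9% were called in the former comparison and 7.33% in the latter. These comparisons share the Sox2-KD libraries. Against control, the log2FC of Jak1 was 0.26 in Sox2-KD (adjusted p = 0.439), -0.46 in the hnRNPK-labelled libraries (adjusted p = 0.528, unadjusted 0.0196) and -0.46 in Cdk9-KD (adjusted p = 0.379, unadjusted 0.0203), none called by edgeR. The calls did not hold without Sox2-KD replicate 2, where the log2FC was 0.57 in each comparison. The call against the hnRNPK-labelled libraries was also lost without replicate 1 of that group (0.84, adjusted p = 0.0703) and without its replicate 2, the library in which Hnrnpk was not lower (0.62, adjusted p = 0.221, edgeR), and with no filter on low counts (0.69, adjusted p = 0.0580). The call against Cdk9-KD was lost without Cdk9-KD replicate 1 (0.82, adjusted p = 0.0504) and replicate 2 (0.63, adjusted p = 0.128, edgeR). Jak1 shares 4 exon bases with Raver2 on the opposite strand.

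Stat3 (ENSMUSG00000004040.16, chromosome 11, 100885098 to 100939540, − strand), which encodes the transcription factor of the pathway, varied little. It had 148 and 159 CPM in control, 183 and 168 in Sox2-KD, 156 and 149 in the hnRNPK-labelled libraries, and 143 and 133 in Cdk9-KD. The Sox2-KD libraries were the highest and the Cdk9-KD libraries the lowest, in an order whose neighbours did not differ by the test. The log2FC against control was 0.19 in Sox2-KD (95% interval -0.11 to 0.48), -0.01 in the hnRNPK-labelled libraries (-0.31 to 0.28) and -0.16 in Cdk9-KD (-0.45 to 0.14). Between the ends of the order, Sox2-KD and Cdk9-KD, it was 0.35 (95% interval 0.05 to 0.64, adjusted p = 0.161, edgeR), under the limit of 0.6. Stat3 and Stat5a share 72 exon bases on opposite strands, and the highest count of Stat5a in any library was 109, against 2247 to 3323 for Stat3.

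The inhibitor gene Socs3 (ENSMUSG00000053113.3, chromosome 11, 117966079 to 117970047, − strand) had 135 and 116 CPM in control, 149 and 157 in Sox2-KD, 125 and 120 in the hnRNPK-labelled libraries, and 153 and 142 in Cdk9-KD. Both Sox2-KD and both Cdk9-KD libraries were above both control libraries, and the hnRNPK-labelled libraries lay within the control range. The log2FC against control was 0.29 ± 0.14 in Sox2-KD (95% interval -0.02 to 0.59, adjusted p = 0.294), -0.04 in the hnRNPK-labelled libraries (adjusted p = 0.973) and 0.23 in Cdk9-KD (adjusted p = 0.606), none called by edgeR. A change in Socs3 of more than 0.6 in Sox2-KD lay outside the 95% interval. The Socs3 window printed above starts from the RefSeq start, which lies inside the gene as GENCODE draws it.

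The kinase gene Pim1 (ENSMUSG00000024014.8, chromosome 17, 29490753 to 29496112, + strand) was the member called lower in Sox2-KD. It had 84.0 and 135 CPM in control, 39.3 and 60.8 in Sox2-KD, 66.3 and 87.8 in the hnRNPK-labelled libraries, and 94.6 and 89.7 in Cdk9-KD. Both Sox2-KD libraries were below the other 6, and the Sox2-KD mean was 45.6% of the control mean. The log2FC was -1.13 ± 0.26 (SE, 95% interval -1.70 to -0.56, adjusted p = 0.0373, edgeR). The order of the means was control, Cdk9-KD, the hnRNPK-labelled libraries and Sox2-KD, and no neighbours in it differed by the test. Against Cdk9-KD, Pim1 in Sox2-KD had a log2FC of -0.88 ± 0.26 (adjusted p = 0.0656, edgeR) and against the hnRNPK-labelled libraries one of -0.62 ± 0.26 (adjusted p = 0.192, edgeR), neither of which was called. DESeq2 called the former (-0.87, adjusted p = 0.0116), as did the likelihood ratio test (-0.88, adjusted p = 0.0150), and so did edgeR's quasi-likelihood test when either control library was left out (-0.86 each, adjusted p 0.0486 and 0.0493). The log2FC of Pim1 against control was -0.51 in the hnRNPK-labelled libraries (adjusted p = 0.657) and -0.25 in Cdk9-KD (adjusted p = 0.792, edgeR), the latter turning to 0.11 without control replicate 2. The Sox2-KD call was lost without control replicate 2, the library with the highest Pim1 (-0.76, adjusted p = 0.245), without Sox2-KD replicate 1 (-0.86, adjusted p = 0.169) and without Sox2-KD replicate 2 (-1.48, adjusted p = 0.0593, edgeR). The antisense gene Gm26885 shares 488 exon bases with Pim1, with at most 12 counts in any library against 715 to 2362 for Pim1, and whether the counting used strand is not given in the sources used here.

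Pim3 (ENSMUSG00000035828.11, chromosome 15, 88862186 to 88865726, + strand), which encodes a related kinase, had 89.4 and 84.5 CPM in control, 50.6 and 60.4 in Sox2-KD, 57.3 and 75.5 in the hnRNPK-labelled libraries, and 101 and 62.3 in Cdk9-KD. Both Sox2-KD libraries were below control, one of the Cdk9-KD libraries was above it and the other was close to Sox2-KD. The Sox2-KD mean was 63.8% of the control mean, with a log2FC of -0.65 ± 0.23 (95% interval -1.15 to -0.15, adjusted p = 0.141, edgeR), which was not called. With the fit limited to the 4 libraries of Sox2-KD and control it was called (log2FC -0.67, adjusted p = 0.0367, edgeR). The log2FC was -0.39 in the hnRNPK-labelled libraries (adjusted p = 0.729) and -0.09 in Cdk9-KD (adjusted p = 0.933, edgeR), and the latter became 0.21 without Cdk9-KD replicate 2. Against Cdk9-KD it was -0.56 (adjusted p = 0.178, edgeR), and without Cdk9-KD replicate 2 it was called (-0.87, adjusted p = 0.0469, edgeR). The other family member, Pim2, which was not among the 8 and was chosen after its values were seen, had 14.6 and 14.0 CPM in control and 22.5 and 23.1 in Sox2-KD (log2FC 0.67, adjusted p = 0.0762, edgeR). The Pim2 values in Sox2-KD were above control and those of Pim1 and Pim3 were below it, and of the 3 genes Pim1 was called.

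**Figure D2:**
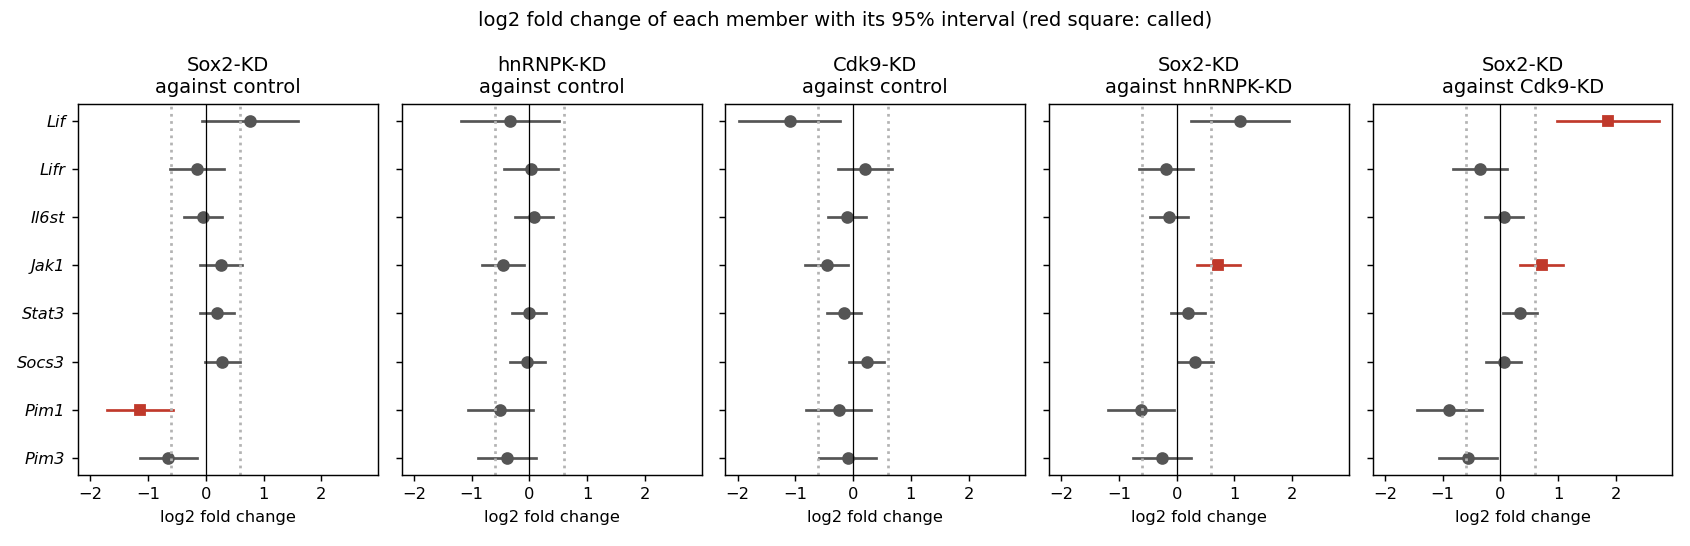
log2FC of each member (points) with its 95% interval (lines) in 5 comparisons, on a common axis. Red squares are called genes and dotted lines mark the limits of -0.6 and 0.6. Pim1 is called against control in Sox2-KD (-1.13). Jak1 is called in Sox2-KD against the hnRNPK-labelled libraries and against Cdk9-KD (0.72 each). Lif is called in Sox2-KD against Cdk9-KD (1.87).

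Between Cdk9-KD and the hnRNPK-labelled libraries, 0 members were called by edgeR's quasi-likelihood test, DESeq2 or the likelihood ratio test. Over all genes these tests called 0, 56 and 67. Of the members, 0 had an unadjusted p under 0.05, against 5.71% of all genes. Jak1 had close means in both (56.3 ± 4.54 and 56.1 ± 6.53 CPM, SD, n = 2 each), with a log2FC of 0.00 and a 95% interval from -0.37 to 0.37. The interval for Lif, from -1.65 to 0.12, was the widest among the members. Here 4 of 8 members did not overlap, 2 higher (17.4% of all genes) and 2 lower (14.3%), 31.7% of all genes not overlapping.

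Sox2-KD and the hnRNPK-labelled libraries differed by the call in 1 of 8 members (Jak1), against 5.9% of all tested genes. Without replicate 2 of the latter, the log2FC of Jak1 was 0.62. Of the 8, 4 had an unadjusted p under 0.05 (21.3% of all genes) and 6 did not overlap (54.9%), 4 of them higher in Sox2-KD (27.6%) and 2 lower (27.3%). Sox2-KD and Cdk9-KD differed by the call in 2 of 8, against 7.33% of all tested genes. Of the 8, 5 had an unadjusted p under 0.05 (21.7% of all genes) and 5 did not overlap (49.8%), 3 of them higher in Sox2-KD (24.7%) and 2 lower (25.1%). The median absolute log2FC of the members was 0.46 between Sox2-KD and Cdk9-KD, against 0.29 over all tested genes, and 0.27 between Sox2-KD and control, against 0.28 over all tested genes.

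**Figure D3:**
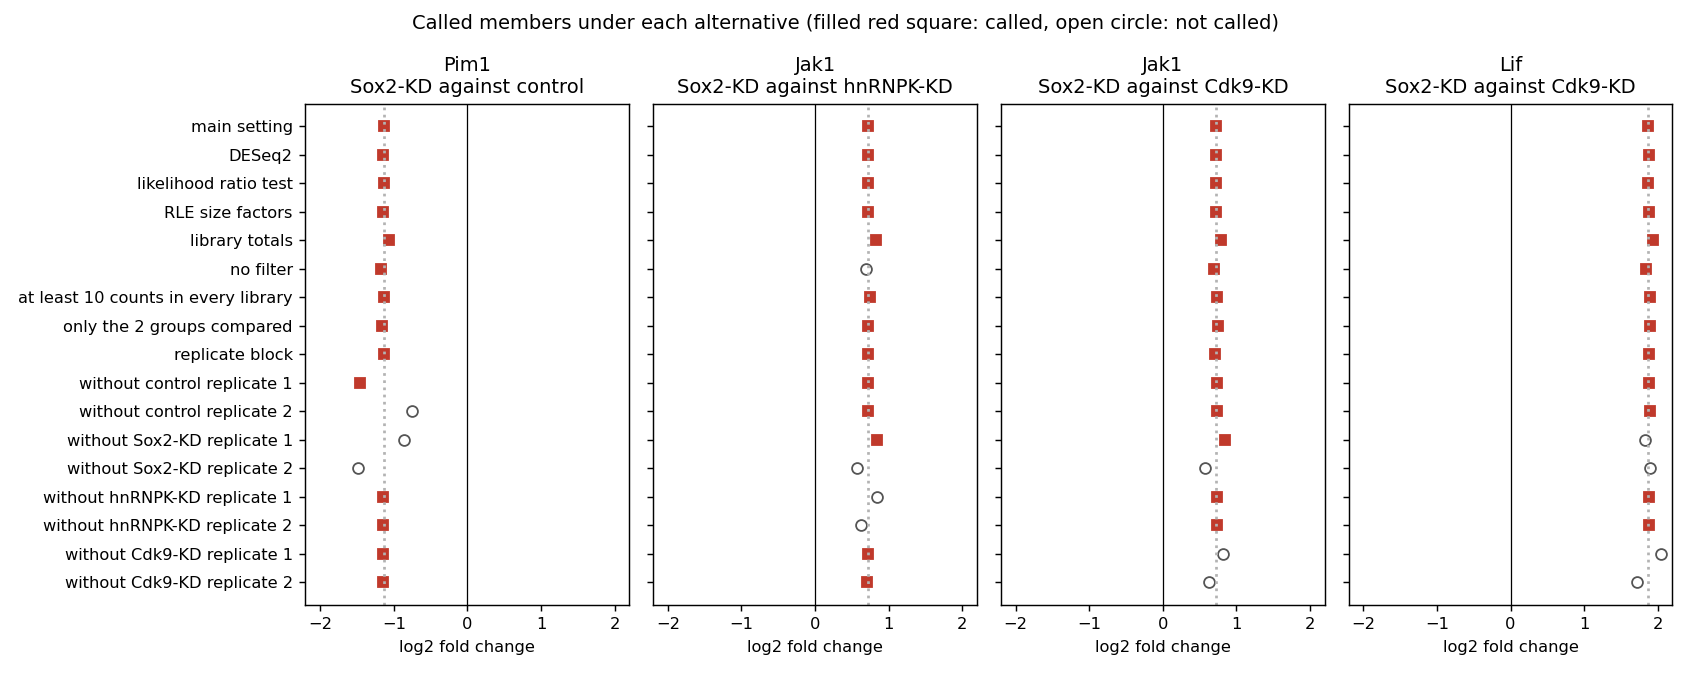
log2FC of the 3 called members, in the 4 comparisons in which they were called, under the main setting and 16 alternatives. Filled red squares are called values and open circles are values that were not called, and dotted lines mark the main value. All 4 values kept their sign. On leaving out a library, calls were lost only for libraries of the groups compared. These were 3 of the 4 libraries compared for Pim1, most of them for Jak1 and all 4 for Lif.

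Other genes of the pathway were described from a list of 54 in 6 roles, of which 49 passed the filter. In Sox2-KD, 1 of the 49 was called higher and 0 lower, against 2.63% and 1.69% of all tested genes, and the median log2FC was 0.17 against 0.02 over all tested genes. At an unadjusted p under 0.05 there were 10 of the 49 in Sox2-KD, against 19.3% of all tested genes. In the hnRNPK-labelled libraries and in Cdk9-KD, 0 of the 49 were called. There, 5 each had an unadjusted p under 0.05 (8.03% and 10.4% of all tested genes), with medians of -0.02 and -0.03. The called gene was Il11ra1, which encodes the alpha chain of the IL-11 receptor that signals with gp130. It had 2.08 and 1.49 CPM in control, 4.51 and 4.96 in Sox2-KD, 1.93 and 2.15 in the hnRNPK-labelled libraries, and 2.57 and 2.07 in Cdk9-KD. Its log2FC in Sox2-KD was 1.40 ± 0.35 (adjusted p = 0.0475, edgeR), both Sox2-KD libraries being above the other 6. The call was close to the threshold and was lost in 9 of 16 alternatives (log2FC 1.17 to 1.65), among them leaving out either control library, either Sox2-KD library or either hnRNPK-labelled library, and the replicate number as a block (1.41, adjusted p = 0.0611, edgeR). Il11ra1 has a close copy, Il11ra2, which had 0 counts in every library, so that the split of reads between them is uncertain. Over all tested genes, DESeq2 called 1029 in Sox2-KD and the likelihood ratio test 1350, against 713 in the main setting. The number of the 49 genes called in Sox2-KD was 3 with DESeq2, 5 with the likelihood ratio test, and 0 or 1 in every other alternative.

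By role, 3 of the 7 other ligand genes were tested and 0 called. The 4 tested receptor genes all had a log2FC above 0 in Sox2-KD (median 0.83), against 51.8% of all tested genes. Of the 4, 2 lay above control without overlap, Il11ra1 and Cntfr, against 28.2% of all tested genes. Cntfr had means of 3.07 CPM in Sox2-KD and 0.82 in control. Both genes had low counts in control, 37 and 26 for Il11ra1 and 17 and 12 for Cntfr. The other receptor genes overlapped with control, Il6ra at means of 40.6 in Sox2-KD and 39.6 in control and Il27ra at 1.43 and 1.19. Osm, which encodes oncostatin M, another ligand that signals through gp130, had 11.9 and 16.6 CPM in control, 16.2 and 26.0 in Sox2-KD, 11.4 and 10.4 in the hnRNPK-labelled libraries, and 8.53 and 6.39 in Cdk9-KD, with a log2FC of 0.57 in Sox2-KD (adjusted p = 0.306, edgeR). Like Lif, Osm was highest on average in Sox2-KD and lowest in Cdk9-KD. Among the 8 other kinases and STATs, 0 were called in Sox2-KD and 7 had a log2FC above 0. Tyk2, which encodes another JAK family kinase, had the largest log2FC (0.49, adjusted p = 0.176, edgeR), from 39.2 and 40.2 CPM in control to 50.3 and 61.1 in Sox2-KD. Of the 14 other inhibitors 0 were called, with 6 above 0 and 8 below. Socs5, of the SOCS family, had 12.7 and 12.4 CPM in control and 17.7 and 15.1 in Sox2-KD (log2FC 0.39, adjusted p = 0.380, edgeR). Socs5 was also above control in the hnRNPK-labelled libraries (20.1 and 14.7) and in Cdk9-KD (14.4 and 16.0). Of the 5 adaptors 0 were called, and Gab1, a docking protein for the phosphatase SHP2, had 361 and 360 CPM in control and 441 and 415 in Sox2-KD (log2FC 0.25, adjusted p = 0.562, edgeR). Gab1 had 431 and 365 CPM in the hnRNPK-labelled libraries and 318 and 519 in Cdk9-KD.

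Among 15 other known targets of STAT3, 12 had a log2FC above 0 in Sox2-KD, against 51.8% of all tested genes, with a median of 0.33, and 0 were called. At an unadjusted p under 0.05 there were 6, against 19.3% of all genes, of which 5 were above 0 and 1, Ccnd1, was below (-0.91, adjusted p = 0.112, edgeR). In the whole list of 49 tested genes there were 10, and 34 of the 49 had a log2FC above 0. Ccnd1, which encodes cyclin D1 and was chosen after its values were seen, had 112 and 227 CPM in control and 80.6 and 100 in Sox2-KD. It had 117 and 141 in the hnRNPK-labelled libraries and 91.3 and 130 in Cdk9-KD, so that its mean was below control in each group. Pramel7 had the largest log2FC (1.66, adjusted p = 0.143, edgeR), with 4.34 and 5.84 CPM in control, 7.97 and 24.2 in Sox2-KD, 3.17 and 0.76 in the hnRNPK-labelled libraries, and 0.88 and 0.59 in Cdk9-KD. Pramel7 belongs to a multigene family, so that its counts are uncertain. The part of the differences in cell type markers in Sox2-KD was not tested for this list either.

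**Figure D4:**
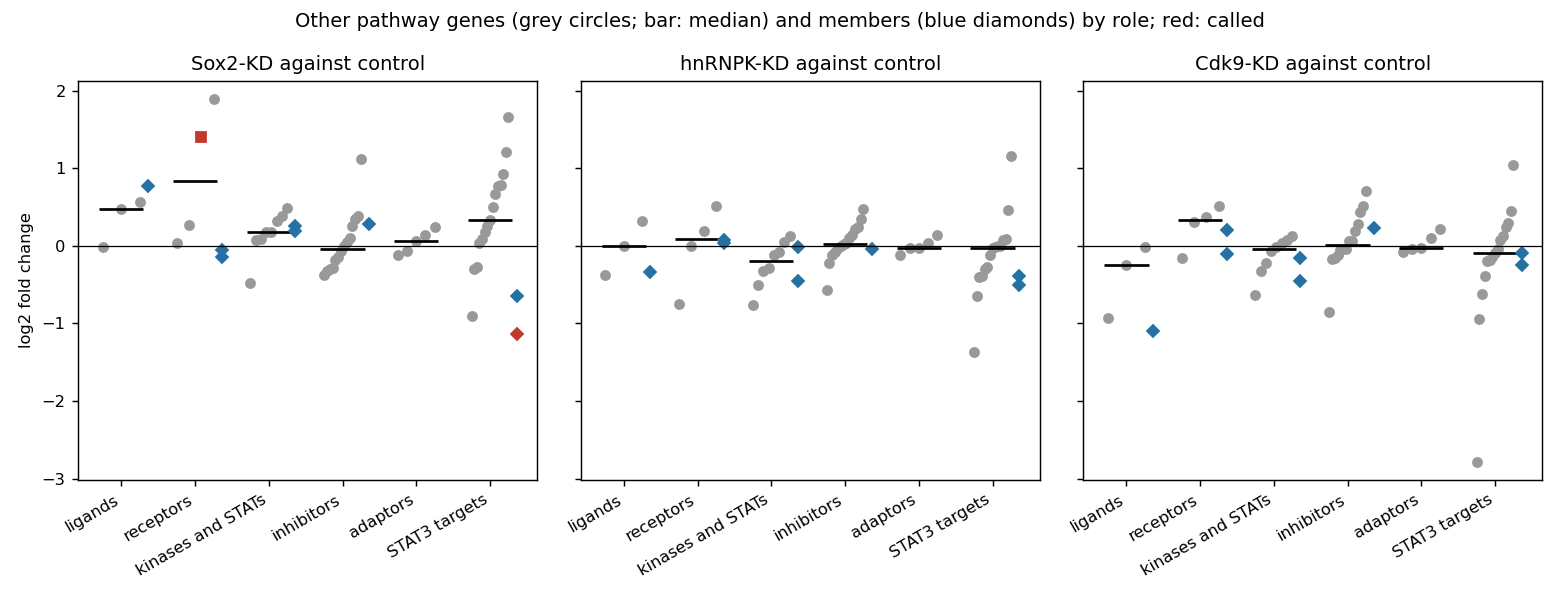
log2FC of the 49 tested pathway genes (grey circles, red squares where called) and of the 8 members (blue diamonds, red where called) by role in each knockdown against control. Black bars are medians of the pathway genes without the members. In Sox2-KD the STAT3 targets other than the members have a median of 0.33, while Pim1 (-1.13) and Pim3 (-0.65) lie below 0.

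The direct comparisons called more genes of the list, and the genes named here were chosen after their values were seen. Between Sox2-KD and the hnRNPK-labelled libraries, 2 of 49 were called higher and 0 lower, against 3.95% and 1.95% of all tested genes: Bcl3 (log2FC 0.72, adjusted p = 0.0289) and Pramel7 (3.03, adjusted p = 0.0227, edgeR). Both calls were lost without Sox2-KD replicate 2 (0.60 and 2.02) and without replicate 2 of the hnRNPK-labelled libraries (0.82 and 2.35), and that of Bcl3 also without replicate 1 of that group (0.63). The number of the 49 genes called in this comparison was 9 with the likelihood ratio test, 7 with library totals, 5 with DESeq2 and 4 without Sox2-KD replicate 1. It was 1 with no filter or without replicate 1 of the hnRNPK-labelled libraries, 0 without replicate 2 of either group, and 2 or 3 in the other alternatives. Over all tested genes, the likelihood ratio test called 1690 between Sox2-KD and the hnRNPK-labelled libraries, against 974 in the main setting. Between Sox2-KD and Cdk9-KD, 6 of 49 were called higher and 1 lower, against 4.77% and 2.56% of all tested genes. The called higher genes were the ligand gene Osm (1.498), the receptor gene Cntfr (2.05) and the targets Pim2 (0.81), Junb (0.99), Cebpd (2.15) and Pramel7 (4.44), and the called lower gene was Ptpn6 (-0.81), which encodes the phosphatase SHP1 (edgeR, adjusted p 0.00501 to 0.0445). Of these 7, Pramel7 kept its call in every alternative tried, while Junb lost it in 9 of 16, Cntfr in 8 of 15, Pim2 in 6 of 16, Ptpn6 in 5 of 16, and Osm in 2 of 16 and Cebpd in 2 of 15. Without Sox2-KD replicate 2, and likewise without Cdk9-KD replicate 2, 1 of the 49 genes was called in this comparison, against 7 with all libraries. The number was 4 without replicate 1 of either group, with no filter or with only the 2 groups compared, and 5 to 8 in the other alternatives.

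For each called member, the 3 genes whose log2 CPM, centred on its mean, lay closest to it over the 8 libraries were found among 12329 genes. Pim1, which itself spread by 0.49 (root mean square, log2), was followed most closely by Gstm3 (root mean square difference 0.15), Kdm5b (0.16) and Pip5k1b (0.17). Kdm5b, which encodes a histone H3K4 demethylase, averaged 576 CPM in control, 319 in Sox2-KD, 515 in the hnRNPK-labelled libraries and 563 in Cdk9-KD. For Jak1 (spread 0.33) these were Blvra (0.06), Cndp2 (0.08) and Iqgap1 (0.09), and for Lif (spread 0.76) they were Larp1b (0.22), Lxn (0.23) and Btg2 (0.23). Btg2, an antiproliferative gene, averaged 62.5 CPM in control, 105 in Sox2-KD, 54.2 in the hnRNPK-labelled libraries and 40.1 in Cdk9-KD. These genes were picked for their likeness over the same libraries, which is given as a description.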

How the data were processed

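RNA-seq of 8 libraries of E14 ESCs was used, 2 in each of 4 groups, and each count column was assigned to its library through the label it carries. The authors trimmed the reads with Trimmomatic and aligned them to GENCODE vM23 (mm10), and they deposited raw gene counts, neither normalized nor pooled. The submitters' processing notes name STAR 2.7.9a and featureCounts 2.0.1. The strand setting is not given in the sources used here. Symbols, positions and exon lengths came from GENCODE vM21 on GRCm38, which named 55154 of 55335 genes.

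Low genes were removed by filterByExpr (count of 10, total of 15), and the rest were tested with edgeR 4.0.16 (R 4.3.3): TMM, a group term over all 8 libraries, quasi-likelihood F tests, and p-values adjusted by Benjamini-Hochberg over 16504 genes, at the authors' thresholds (0.05 and 0.6). The fitting was run on counts simulated with the spread fitted to these same libraries. That run cannot bear on calls that depend on single libraries. With 2 libraries a group, the spread was shared over groups. Leaving out a library leaves 1 in its group, which is then assumed to vary like the others.

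The members and gene lists were chosen with earlier results of these data known. Named were all members, the 3 targeted genes, each pathway gene called against control, otherwise the gene of each role with the largest absolute log2FC in Sox2-KD (average log2 CPM over 1), and the 3 genes most like each called member. Alternatives were DESeq2 1.42.0, the likelihood ratio test, RLE size factors, library totals, no filter, a stricter filter (10 counts in each library), fits to just the 2 groups at hand, the replicate number as a block, no limit on the fold change, and leaving out each library. For named pathway genes they were added after seeing the data. Figures were drawn with matplotlib.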

Additional observations from a re-analysis of the deposited data

How the results depend on the processing

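Of 768 log2FC values of members under 16 alternatives in 6 comparisons, 717 kept their sign and their side of the threshold, 14 lost a call, 8 gained one and 29 changed sign. Most of the 768 belong to members and comparisons not called in the main setting, which had no call to lose. None of the values that changed sign was called in the main setting. Of 204 counts of called genes or members under 17 alternatives, which add no limit on the fold change, 168 stayed within 1.5 times the main count. With 2 libraries a group, the calls that follow depend on single libraries. Lif had the lowest counts of the members (49 to 220).

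Leaving out each library in turn gave 144 to 840 called genes for Sox2-KD against control (713 in all libraries), 0 to 1 for the hnRNPK-labelled libraries (0), 0 to 33 for Cdk9-KD (23), 90 to 1100 for Sox2-KD against the hnRNPK-labelled libraries (974), 337 to 1286 for Sox2-KD against Cdk9-KD (1210) and 0 to 6 for Cdk9-KD against the hnRNPK-labelled libraries (0). Called members ranged from 0 to 1, 0 to 1 and 0 to 3 in Sox2-KD against control, the hnRNPK-labelled libraries and Cdk9-KD. The likelihood ratio test called 1350, 87, 279, 1690, 1869 and 67 genes in the 6 comparisons in that order. Against control, DESeq2 called 1029 in Sox2-KD, 83 in the hnRNPK-labelled libraries and 222 in Cdk9-KD. It called 56 between Cdk9-KD and the hnRNPK-labelled libraries. With no filter, 1 gene was called in the hnRNPK-labelled libraries, and 0 members were called between Sox2-KD and those libraries. With only the 2 groups compared, 2 members were called in Sox2-KD.

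Leaving out a library turned the sign of the log2FC in these ranges. Against control, they were, in Sox2-KD, -0.38 to 0.10 for Lifr and -0.22 to 0.11 for Il6st. In the hnRNPK-labelled libraries they were -1.20 to 0.18 for Lif, -0.20 to 0.27 for Lifr, -0.0911 to 0.24 for Il6st, -0.15 to 0.0543 for Socs3 and -0.0866 to 0.0276 for Stat3, and in Cdk9-KD -0.0446 to 0.43 for Lifr, -0.30 to 0.0321 for Il6st, -0.59 to 0.11 for Pim1 and -0.51 to 0.21 for Pim3. They were -0.41 to 0.00394 for Lifr in Sox2-KD against the hnRNPK-labelled libraries and -0.00714 to 0.13 for Socs3 in Sox2-KD against Cdk9-KD. Between Cdk9-KD and the hnRNPK-labelled libraries they were -0.12 to 0.10 for Jak1, -1.31 to 0.0715 for Lif, -0.0603 to 0.36 for Lifr and -0.11 to 0.60 for Pim3. There, Jak1 was -0.00375 with DESeq2, -0.00375 with RLE size factors and -0.00454 with no filter, against 0.0035. With library totals, Il6st was 0.0224 in Sox2-KD and Lifr -0.0042 in the hnRNPK-labelled libraries. The cause of these changes was not tested.

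Libraries with the same replicate number had correlations of their deviations of -0.22 to 0.21, over 0.1 in 3 of 6 pairs of groups, and no label ties them, so that they were not treated as paired. With the replicate number as a block, 695 genes were called in Sox2-KD and 15 in Cdk9-KD, Pim1 was at -1.13 in Sox2-KD against control, and Pim1 was called in Sox2-KD against Cdk9-KD (-0.93), making 3 members there. The block changed no other call of a member, but of the named pathway genes Il11ra1 in Sox2-KD against control (1.41) and Cntfr (2.08) and Junb (0.997) in Sox2-KD against Cdk9-KD lost their calls.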
